A study of Mus musculus with 8 samples.

Results

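The 9 genes described here encode scavenger and endocytic receptors of the cell surface. They were taken by name (Msr1, Mrc1, Stab1, Scarb1, Scarf1, Colec12, Lrp1, Cd93 and Clec1b) from the 32903 mouse genes to which the deposited transcripts could be summed, and all 9 were found. Their RNA was measured by bulk RNA-seq in preparations labelled as Kupffer cells, which are macrophages that reside in the liver. All mice were wild-type. The 3 CCl4 libraries came from fibrotic livers of mice given carbon tetrachloride, a hepatotoxin, in corn oil. The dose was 0.75 mL/kg and was given for 8 weeks, 3 times in each. The 5 naive libraries came from mice labelled as untreated controls, so the toxin and its oil vehicle cannot be told apart. The labels number the CCl4 libraries 1, 2-4 and 3 without saying whether 2-4 is a pool, give neither age nor sex, and do not state that each library is a separate animal. The p-values therefore rest on the spread from library to library, which may in part be technical.

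Scavenger receptors bind modified lipoproteins, damaged proteins, microbial surfaces and dying cells, and endocytic receptors carry bound ligands through clathrin-coated pits to endosomes. In the liver this clearance of blood-borne material is shared between Kupffer cells and the endothelium that lines the sinusoids. Several of the receptors are made by both cell types: stabilin-1 and the mannose receptor have been described on each.

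Values are in TPM, a share of all transcripts that corrects for transcript length and for the total of the library, so that levels of different genes can be set side by side. The files hold no read numbers. Depth is thus unknown, and errors are the spread between libraries. In each library 14059 to 15063 genes had 1 TPM or more. The labelled cell type was checked on its markers. Clec4f, the lectin that marks mouse Kupffer cells, was at 77.7 ± 11 TPM in CCl4 libraries and 1397 ± 416 TPM in naive libraries (SD, n = 3 and 5). Transcripts of other cells were present as well: Clec4g, which encodes the sinusoidal endothelial lectin LSECtin, was at 89.0 ± 42.2 TPM in CCl4 and 2289 ± 586 TPM in naive libraries, and Ccr2, the chemokine receptor of monocytes, 251 ± 63.9 TPM and 18.6 ± 11.1 TPM. Naive replicate 5 stood apart from the other naive libraries. Its Pearson correlation with them across genes, which are not independent replicates, was 0.943 to 0.951, against 0.968 to 0.981 among the other naive libraries. With the CCl4 libraries it was higher than theirs, 0.878 to 0.888 against 0.813 to 0.846 for the other naive libraries.

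Of the 9 receptor genes, 7 were lower in CCl4 than in naive libraries, Lrp1 was higher, and Cd93 was not called, by limma on log2(TPM + 1) at a Benjamini-Hochberg adjusted p under 0.05 over all 15629 genes tested. The deepest falls were those of Clec1b, Scarf1 and Mrc1, whose CCl4 means were 7.89%, 9.49% and 14.8% of their naive means. Over all tested genes 22.5% were called lower and 15.3% higher, 37.8% in either direction. All 9 passed the filter on low values of 1 TPM in at least 3 libraries, and the lowest value of any of them in any library was 6.26 TPM. The median log2 fold change of the 9 genes was -1.83, and that of all tested genes was -0.06. For 8 of the 9 genes the groups did not overlap, 7 lower and 1 higher, as was the case for 36.9% of all tested genes, 20.6% lower and 16.3% higher. The 9 genes were chosen with earlier results of these data known, so setting them beside all genes is a description and not a test. All 7 lower calls were also made under each of the 21 alternatives tried, among them the fit without naive replicate 5, while the call of Lrp1 was lost under 5 of them. Over all genes 2393 were called higher and 3513 lower, and after quantile normalization, which shifted the median of all genes by 0.17 on the log2 scale, 4011 and 3086. In bulk RNA, fewer cells of a type and less RNA per cell cannot be told apart.

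**Figure D1:**
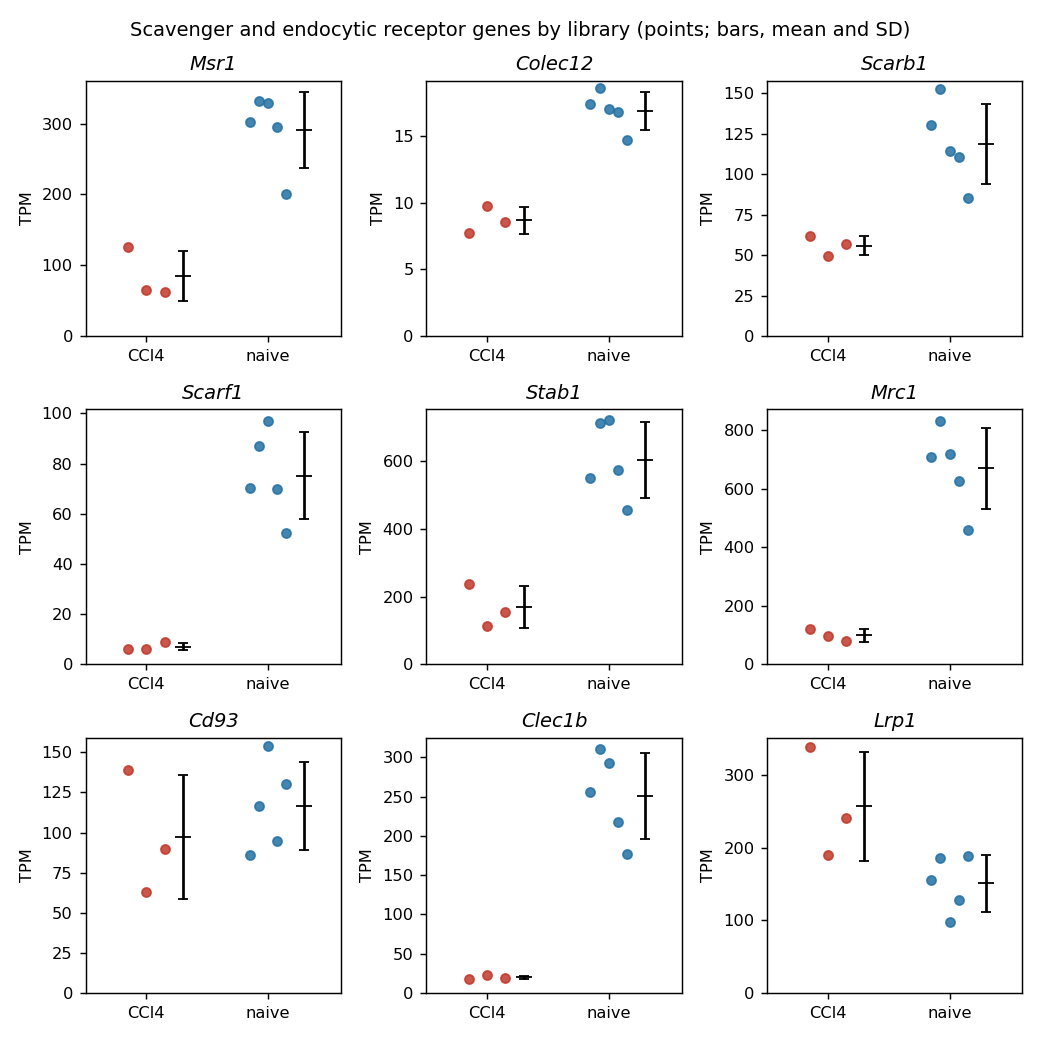
TPM of the 9 receptor genes in each library (points, in the order of the library labels), with the mean and SD of each group beside them; each vertical axis is linear and starts at 0. Except for Cd93, the 3 CCl4 points lie wholly below the 5 naive points, or in the case of Lrp1 wholly above them.

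Msr1 (GRCm38 chromosome 8, 39543232 to 39642750) and Colec12 (chromosome 18, 9707648 to 9877995) encode class A scavenger receptors with collagen-like stalks. Msr1, the macrophage scavenger receptor that takes up acetylated and oxidised LDL, had 126.3, 65.6 and 62.4 TPM in CCl4 replicates 1, 2-4 and 3, against 302.9, 331.6, 329.6, 294.8 and 200.04 TPM in naive replicates 1 to 5. Every CCl4 library was below every naive library, with CCl4 replicate 1 and naive replicate 5 nearest to each other. The means were 84.8 ± 36.0 TPM in CCl4 and 292 ± 53.8 TPM in naive libraries, and Msr1 fell by 1.83 in log2 terms (adjusted p = 0.000204, SE 0.248). Colec12, a receptor with a C-type lectin domain that is known mainly from vascular endothelium, was the least abundant of the 9 in naive libraries. It had 7.74, 9.75 and 8.60 TPM in CCl4 replicates 1, 2-4 and 3, against 17.4, 18.6, 17.1, 16.8 and 14.7 TPM in naive replicates 1 to 5. The naive libraries lay close together, with a coefficient of variation of 8.4%, and none reached down to the CCl4 values. Colec12 fell by 0.89 in log2 terms (adjusted p = 0.000609, SE 0.142), the smallest of the 7 falls.

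Scarb1 (chromosome 5, 125277087 to 125341094) encodes SR-BI, the class B receptor that takes cholesteryl ester from HDL. It had 61.5, 49.5 and 56.5 TPM in CCl4 replicates 1, 2-4 and 3, against 130.3, 152.3, 114.1, 110.8 and 85.4 TPM in naive replicates 1 to 5. The CCl4 libraries were tightly grouped below the naive range. Its mean was 55.8 ± 6.03 TPM in CCl4 and 119 ± 24.8 TPM in naive libraries (log2 fold change -1.05, adjusted p = 0.000976, SE 0.181). Scarf1 (chromosome 11, 75513489 to 75526582), the class F receptor SREC-I first described on endothelial cells, changed more. It had 6.26, 6.26 and 8.91 TPM in CCl4 replicates 1, 2-4 and 3, against 70.1, 86.8, 97.0, 69.9 and 52.4 TPM in naive replicates 1 to 5. The lowest naive library was thus far above the highest CCl4 library. Scarf1 fell by 3.21 in log2 terms (adjusted p = 1.8e-06, SE 0.205), and 1.50% of all tested genes had a lower fold change.

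Stab1 (chromosome 14, 31139017 to 31168651) encodes stabilin-1, a class H receptor that clears SPARC and acetylated LDL. It had 235.5, 113.6 and 155.0 TPM in CCl4 replicates 1, 2-4 and 3, against 549.2, 711.7, 719.9, 571.5 and 456.1 TPM in naive replicates 1 to 5. The CCl4 libraries differed 2.07-fold among themselves, with replicate 1 highest, and stayed below every naive library. Stab1 averaged 168 ± 62.0 TPM in CCl4 and 602 ± 113 TPM in naive libraries and fell by 1.88 in log2 terms (adjusted p = 0.000121, SE 0.237). Mrc1 (chromosome 2, 14229414 to 14332023) encodes the mannose receptor, which removes mannose-bearing glycoproteins, lysosomal enzymes and collagen fragments from blood. It had 121.5, 96.2 and 80.1 TPM in CCl4 replicates 1, 2-4 and 3, against 707.7, 833.1, 718.9, 626.6 and 460.6 TPM in naive replicates 1 to 5. The highest CCl4 library was well under the lowest naive library, replicate 5. Mrc1 averaged 99.3 ± 20.9 TPM in CCl4 and 669 ± 138 TPM in naive libraries (log2 fold change -2.73, adjusted p = 3.99e-06, SE 0.206).

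Clec1b (chromosome 6, 129397297 to 129405413) encodes CLEC-2, a lectin-like receptor that binds podoplanin and signals through the kinase Syk. It is best known from platelets, and in mouse liver it has also been described on Kupffer cells. It had 18.2, 22.4 and 18.6 TPM in CCl4 replicates 1, 2-4 and 3, against 255.2, 309.9, 292.5, 217.3 and 176.9 TPM in naive replicates 1 to 5. The CCl4 libraries were nearly alike and all were far below the naive libraries. Clec1b averaged 19.7 ± 2.29 TPM in CCl4 and 250.4 ± 54.4 TPM in naive libraries and fell by 3.58 in log2 terms (adjusted p = 1.59e-06, SE 0.188), the largest change of the 9. Of the 6 platelet markers tested, 1 was lower (Itga2b) and 5 were not called. The platelet gene Pf4 was at 65.0 ± 60.0 TPM in CCl4 and 34.3 ± 6.88 TPM in naive libraries (adjusted p = 0.38), and Ppbp at 3.59 ± 0.245 TPM in CCl4 and 12.5 ± 8.56 TPM in naive libraries (adjusted p = 0.131). Ppbp was called lower without naive replicate 5 (log2 fold change -1.72, adjusted p = 0.00117) and with library weights (-1.63, adjusted p = 0.0135). With the replicate block its log2 fold change was -1.48. The summed platelet markers ranged from 39.1 to 147 TPM in CCl4 and from 36.5 to 90.8 TPM in naive libraries, and their part in the levels of Clec1b was not tested.

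Cd93 (chromosome 2, 148436651 to 148443535) encodes a transmembrane glycoprotein with a C-type lectin-like domain, made by endothelium and myeloid cells and first studied for its part in phagocytosis. It had 139.0, 63.1 and 89.7 TPM in CCl4 replicates 1, 2-4 and 3, against 86.1, 116.3, 154.2, 94.7 and 130.3 TPM in naive replicates 1 to 5. The groups overlapped, with the lowest value in CCl4 replicate 2-4 and the highest in naive replicate 3. Cd93 averaged 97.3 ± 38.5 TPM in CCl4 and 116 ± 27.4 TPM in naive libraries (log2 fold change -0.30, adjusted p = 0.399, SE 0.258). The estimate rested on single CCl4 libraries, since it was -0.59 without replicate 1 (adjusted p = 0.0864) and -0.03 without replicate 2-4 (adjusted p = 0.949).

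Lrp1 (chromosome 10, 127538157 to 127621148) encodes a large endocytic receptor of the lipoprotein receptor family that clears chylomicron remnants, proteases bound to their inhibitors, and many other ligands. It had 339.2, 190.2 and 241.2 TPM in CCl4 replicates 1, 2-4 and 3, against 155.2, 185.7, 97.4, 127.6 and 188.4 TPM in naive replicates 1 to 5. The groups did not overlap, but CCl4 replicate 2-4 stood just above naive replicates 2 and 5. Lrp1 averaged 257 ± 75.7 TPM in CCl4 and 151 ± 38.8 TPM in naive libraries and rose by 0.76 in log2 terms (adjusted p = 0.0318, SE 0.247). This call was lost without CCl4 replicate 1, where the log2 fold change was 0.54 (adjusted p = 0.132), without CCl4 replicate 3 (0.79, adjusted p = 0.0805), without naive replicate 3 (0.62, adjusted p = 0.0543), without naive replicate 4 (0.72, adjusted p = 0.0676) and with no filter on low values (adjusted p = 0.0732). In the fit of single transcripts, where its 1 matched transcript has the same values, the adjusted p was 0.0743. With the replicate number as a block the log2 fold change was 1.21, from replicates 1 and 3 alone. The p-value of that fit does not rest on the spread of Lrp1 itself, as the closing section explains.

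**Figure D2:**
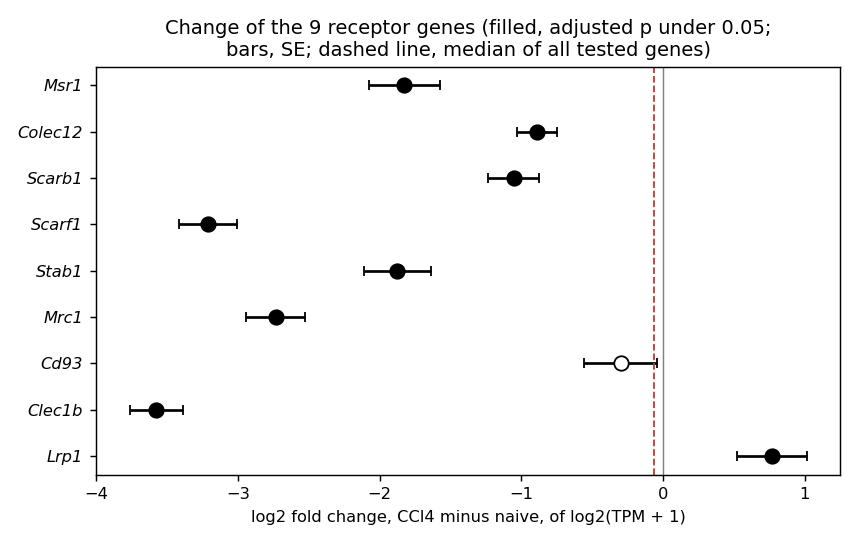
Log2 fold change (CCl4 minus naive, of log2(TPM + 1)) of each receptor gene with its SE. Filled points passed the adjusted p threshold of 0.05, and the dashed line marks the median of all tested genes, -0.06; the falls run from 0.89 for Colec12 to 3.58 for Clec1b.

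The order of the receptors differed between the groups. In CCl4 libraries Lrp1 led with 257 TPM, followed by Stab1 (168), Mrc1 (99.3), Cd93 (97.3), Msr1 (84.8), Scarb1 (55.8), Clec1b (19.7), Colec12 (8.70) and Scarf1 (7.15). In naive libraries Mrc1 led with 669 TPM, followed by Stab1 (602), Msr1 (292), Clec1b (250.4), Lrp1 (151), Scarb1 (119), Cd93 (116), Scarf1 (75.3) and Colec12 (16.9). Neighbours in these orders often overlapped. In CCl4 libraries the steps without overlap were from Msr1 to Scarb1, from Scarb1 to Clec1b and from Clec1b to Colec12. The first of these was bare, with the lowest Msr1 at 62.4 TPM and the highest Scarb1 at 61.5 TPM. In naive libraries the steps without overlap were from Stab1 to Msr1 and from Scarf1 to Colec12. The summed level of the 9 genes was 798 ± 229 TPM in CCl4 and 2291 ± 378 TPM in naive libraries. Lrp1 made up 30.8% to 33.5% of that sum in the CCl4 libraries and 3.83% to 10.7% in the naive libraries. The share of Mrc1 was 11.1% to 15.6% in CCl4 and 26.1% to 31.1% in naive libraries, and that of Clec1b was 1.73% to 3.63% and 10.02% to 11.5%. Msr1 kept a like share, 8.65% to 12.0% in CCl4 and 11.3% to 13.8% in naive libraries, with overlapping groups. Naive replicate 5 was the lowest naive library for 7 of the 9 genes, while for Lrp1 it was the highest.

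**Figure D3:**
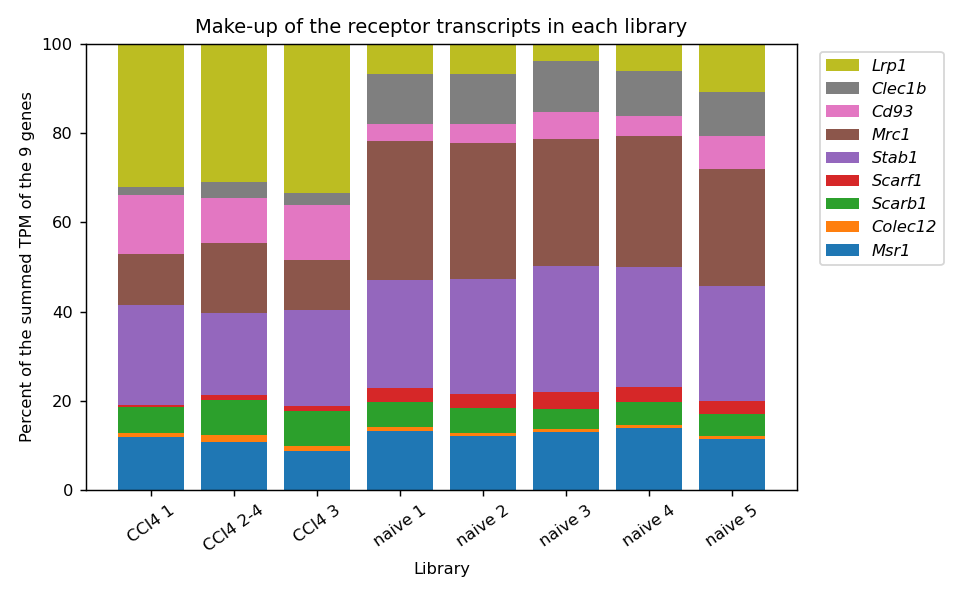
Share of each receptor gene in the summed TPM of the 9 genes, in percent, for the 3 CCl4 libraries (left) and the 5 naive libraries (right). The topmost segment, Lrp1, takes 30.8% to 33.5% in CCl4 libraries and 3.83% to 10.7% in naive libraries, where the Mrc1 and Clec1b segments are taller.

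Markers of the cells that could hold these receptors moved in the same comparison. All 15 sinusoidal endothelial markers and all 10 general endothelial markers were lower in CCl4 libraries, with median log2 fold changes of -4.46 and -3.98. Their summed TPM ranged from 426 to 733 in CCl4 and 6870 to 13094 in naive libraries for the sinusoidal list, and from 109.8 to 274 in CCl4 and 2272 to 4146 in naive libraries for the general list. Of 14 Kupffer cell markers 12 were lower, with a median of -3.38 and sums of 911 to 1112 TPM in CCl4 and 3847 to 7532 TPM in naive libraries. None of the markers of these 3 lists was at 0 in any library. Of 11 pan-macrophage markers 5 were higher and 6 not called, with sums of 5977 to 13284 TPM in CCl4 and 3948 to 7675 TPM in naive libraries. Without CCl4 replicate 1, which gave the highest of these sums, 2 pan-macrophage markers were called higher. Of the 8 monocyte markers tested 4 were higher and 4 not called, with sums of 705 to 1042 TPM in CCl4 and 149 to 260 TPM in naive libraries. The part of these shifts in the receptor changes was not tested.

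Among the most abundant genes of these lists, Aqp1 of the sinusoidal list fell by 4.11, and Kdr and Egfl7 of the general endothelial list by 4.64 and 3.97. Lyz2 of the pan-macrophage list rose by 1.84 and S100a4 of the monocyte list by 3.39, while C1qb, at 1807 ± 629 TPM in CCl4 and 1499 ± 373 TPM in naive libraries, was not called. Markers of further cell types moved in either direction. Of 7 dendritic cell markers 2 were higher and 2 lower, with sums of 276 to 417 TPM in CCl4 and 173 to 220 TPM in naive libraries. Cd209a rose by 5.77 and Zbtb46 fell by 1.38. Of 7 hepatocyte markers 5 were lower and none higher, with sums of 173 to 772 TPM in CCl4 and 586 to 1166 TPM in naive libraries. That count was 3 without CCl4 replicate 2-4 or 3 and 7 without CCl4 replicate 1. Alb, at 274 ± 229.8 TPM in CCl4 and 509 ± 158 TPM in naive libraries, missed the threshold (adjusted p = 0.0561) and was called lower under 7 of the alternatives. Of 9 stellate cell markers 3 were higher and 2 lower, with sums of 133 to 147 TPM in CCl4 and 44.3 to 113 TPM in naive libraries. These counts ranged from 1 to 4 and from 1 to 3 under the alternatives. Col1a1 rose by 2.07, and Col3a1, with a log2 fold change of 1.28, was not called (adjusted p = 0.099; log2 fold change 0.74 and adjusted p = 0.00269 without naive replicate 5). Of 6 neutrophil markers 2 passed the filter, Csf3r, which rose by 1.08 (adjusted p = 0.127 with versioned accessions), and S100a9, which fell by 0.93 (adjusted p = 0.0403), a call lost under 11 of the alternatives. The defining neutrophil gene Ly6g was listed at 0 in all 8 libraries. Of 6 B and T cell markers tested 2 were lower, 4 with library weights, and 6 without CCl4 replicate 2-4 or with the replicate block, with sums of 50.01 to 138 TPM in CCl4 and 110.4 to 134 TPM in naive libraries. Nkg7 and Cd79a, with log2 fold changes of -0.67 and -0.65, were not called (adjusted p = 0.0904 and 0.193), and were called lower without CCl4 replicate 2-4, with library weights and with the replicate block. The part of these lists in the receptor changes was not tested either.

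Set against these sums, the receptors divided. Relative to the sum of Kupffer cell markers, Scarf1 and Clec1b were lower in every CCl4 library than in any naive library, Lrp1, Cd93, Scarb1 and Colec12 were higher, and Msr1, Mrc1 and Stab1 overlapped. Clec1b stood at 1.65% to 2.46% of the Kupffer cell sum in CCl4 and 3.44% to 7.6% in naive libraries. Mrc1 stood at 7.20% to 11% in CCl4 and 8.95% to 18.7% in naive libraries. Relative to the sinusoidal endothelial sum all 9 were higher in every CCl4 library. By its means that sum was itself 17.8-fold lower in CCl4, a deeper fall than the 12.7-fold of Clec1b, the deepest of the 9. The direction thus follows from the fall of the sum, and is not particular to these receptors. Clec1b was the nearest to level by its means, 3.48% in CCl4 and 2.41% in naive libraries. Scarf1 followed at 1.27% in CCl4 and 0.722% in naive libraries. Relative to the pan-macrophage sum 8 were lower and Lrp1 overlapped, at 2.55% to 3.18% in CCl4 and 2.37% to 2.74% in naive libraries. That sum had a CCl4 mean of 154% of its naive mean. The 8 were the 7 genes called lower and Cd93, whose TPM overlapped between the groups. Counts against these sums were not made for all tested genes, so they have no background share.

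Within the naive libraries the receptors kept step with different sums. The level of Scarf1 differed 1.85-fold between the lowest and the highest naive library, and its ratio to the sinusoidal endothelial sum 1.10-fold, to the general endothelial sum 1.07-fold, to the Kupffer cell sum 2.47-fold and to the pan-macrophage sum 3.23-fold. Clec1b, Stab1, Msr1 and Mrc1 likewise varied less over the sinusoidal endothelial sum, by 1.20-fold, 1.21-fold, 1.22-fold and 1.31-fold, against 2.09-fold to 2.23-fold over the Kupffer cell sum. Lrp1 went the other way: its level differed 1.93-fold, its ratio to the pan-macrophage sum 1.15-fold and its ratio to the sinusoidal endothelial sum 3.69-fold. Cd93 varied by at least 1.79-fold on each of these scales, and the TPM of Colec12, with a 1.27-fold range, varied less than its ratio to any of the 4 sums (1.57-fold to 2.03-fold). Among the 3 CCl4 libraries the ratio of Cd93 to the pan-macrophage sum was 1.05%, 1.06% and 1.06%, a 1.01-fold range, and that of Stab1 had a 1.07-fold range. Over the sinusoidal endothelial sum the same 3 libraries went the other way from the naive ones: Stab1 varied 3.57-fold, Msr1 3.31-fold, Mrc1 2.17-fold, Scarf1 1.74-fold and Clec1b 1.40-fold, each more than its own TPM (2.07-fold, 2.02-fold, 1.52-fold, 1.42-fold and 1.23-fold). These ratios rest on 5 and 3 libraries, and the cells that held the transcripts were not measured. The signal recognition particle RNA genes took 27.5% to 41.3% of TPM in the naive libraries, which scales every other value. A ratio to a marker sum cancels that scale, so a narrower range than that of TPM can come in part from this.

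**Figure D4:**
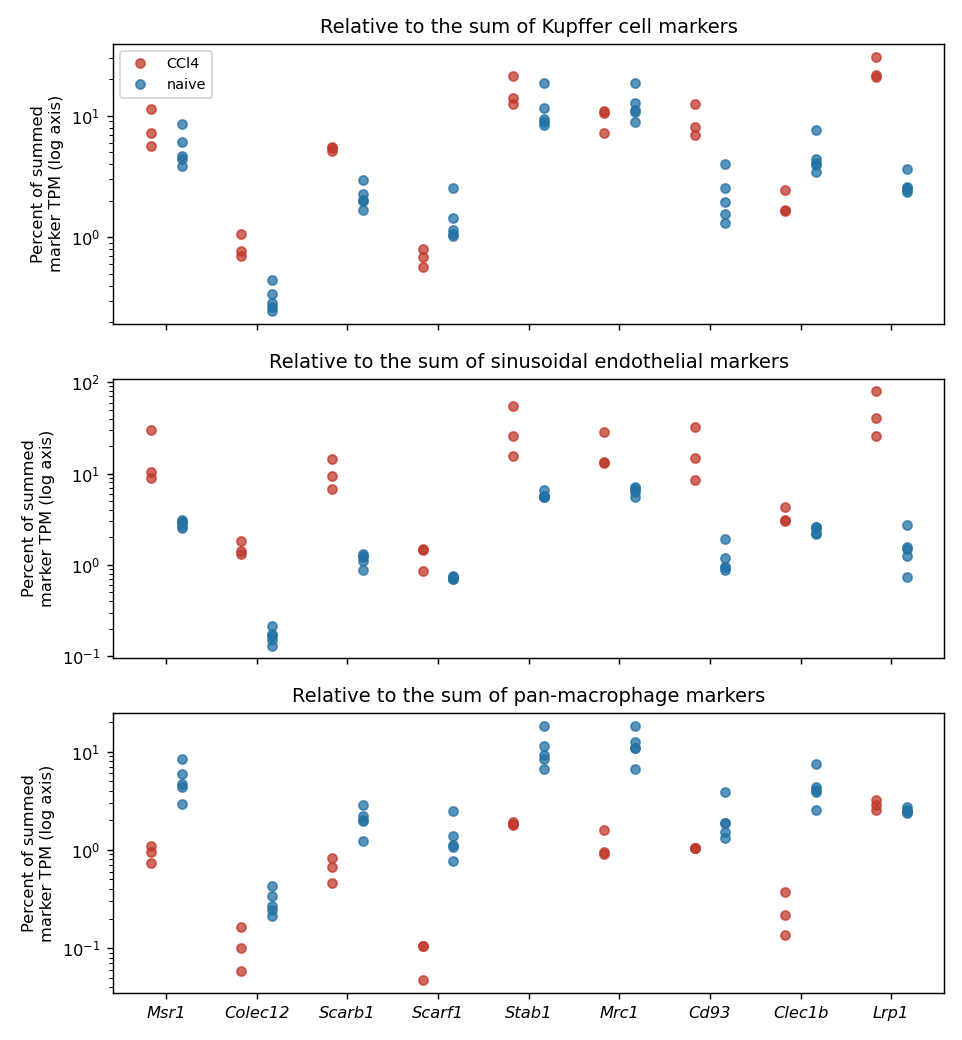
Each receptor gene as a percent of the summed TPM of Kupffer cell markers (top), sinusoidal endothelial markers (middle) and pan-macrophage markers (bottom), on a log axis, for CCl4 libraries (left of each pair, red) and naive libraries (right, blue). All red points lie above the blue ones in the middle panel, where the marker sum itself was 17.8-fold lower in CCl4 by its means. In the bottom panel Lrp1 is the gene whose groups overlap, at 2.55% to 3.18% in CCl4 and 2.37% to 2.74% in naive libraries.

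The files list 20 transcripts of the 9 genes, and in the fit of 35637 transcripts 13 of these were lower and 7 were not called. Of all transcripts tested 19% were called, 11.4% lower and 7.56% higher. Msr1 has the curated forms NM_001113326 and NM_031195, whose matched GENCODE transcripts code for 458 and 354 codons. These are the lengths of the type I receptor, which ends in a scavenger receptor cysteine-rich domain, and of the type II receptor, which lacks it. The longer form averaged 12.1 TPM in CCl4 and 66.2 TPM in naive libraries and fell by 2.47 in log2 terms (adjusted p = 0.00421, SE 0.429). The shorter form averaged 28.8 TPM in CCl4 and 92.0 TPM in naive libraries and fell by 1.73 (adjusted p = 0.00318, SE 0.283). The longer form held 16.6%, 8.50% and 15.5% of the Msr1 TPM in CCl4 replicates 1, 2-4 and 3, against 23.3%, 23.0%, 24.6%, 24.7% and 15.2% in naive replicates 1 to 5. Naive replicate 5 thus lay among the CCl4 libraries, and the groups overlapped. The predicted form XM_006509312 had 6.36% to 7.11% in CCl4 and 10.6% to 15.02% in naive libraries, without overlap. The most abundant form by its mean in each group, XM_006509311, averaged 38.2 TPM in CCl4 and 95.5 TPM in naive libraries and fell by 1.34 (adjusted p = 0.00178, SE 0.195). Its share ran the other way, at 40.5% to 54.0% in CCl4 and 30.003% to 41.9% in naive libraries, and the groups overlapped through naive replicate 5.

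In Stab1 the coding transcript NM_138672 held 79.7% to 87.4% of the gene's TPM in CCl4 and 91.3% to 94.1% in naive libraries. The rest was the predicted non-coding transcript XR_001781097, which averaged 26.7 TPM in CCl4 and 44.7 TPM in naive libraries and fell less, by 0.72 in log2 terms (adjusted p = 0.0132, SE 0.158) against 2.03 for the coding one (adjusted p = 0.00102, SE 0.265). In Scarb1 most TPM came from NM_016741, matched to a coding sequence of 509 codons, the length of SR-BI. It held 67.8% to 74.3% in CCl4 and 73.8% to 80.6% in naive libraries. NM_001205082, with 506 codons as in the splice form SR-BII, was matched to the same GENCODE transcript as the rarer NM_001205083 and held 10.47% to 19.1% in CCl4 and 10.2% to 13.8% in naive libraries, so the shares of both forms overlapped. Clec1b was almost wholly the form NM_019985 of 229 codons, with at least 91.8% in CCl4 and 95.8% to 99.4% in naive libraries. How the authors' software divided reads between overlapping forms adds an error to these shares that the files do not show.

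**Figure D5:**
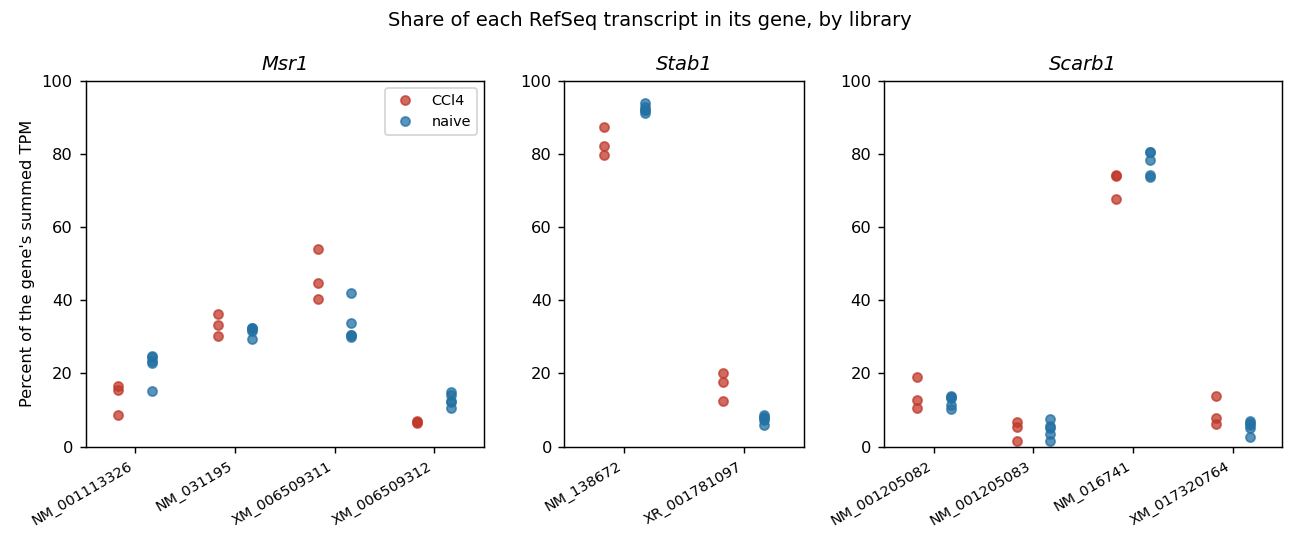
Share of each RefSeq transcript in the summed TPM of its gene, in percent, for Msr1, Stab1 and Scarb1, with CCl4 libraries left (red) and naive libraries right (blue) of each pair. The groups separate for the predicted form XM_006509312 of Msr1 and for both forms of Stab1, and overlap for the others.

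Promoter windows are shown for 4 of the 9 genes, Mrc1, Stab1, Clec1b and Lrp1. These were the ones available for printing, and they were not picked by how the genes changed. Each window is the 250 bases before a RefSeq start in GRCm38.p6, read 5′ to 3′ on the strand of the gene. The windows are chr2:14229164-14229413 (plus strand) for Mrc1, chr14:31168642-31168891 (minus strand) for Stab1, chr6:129397047-129397296 (plus strand) for Clec1b and chr10:127621149-127621398 (minus strand) for Lrp1. Capitals mark the matches, on either strand, to 8 motifs. Those of myeloid and general transcription factors were a PU.1-type ETS motif spelled GAGGAA, the motif of AP-1 spelled TGACTCA and that of the GATA factor family spelled AGATAA. Those of core promoters were the GC box spelled GGGCGG, the TATA box spelled TATAAA and the box of nuclear factor Y, the CCAAT box. A STAT6-type and an interferon-response-type motif are given by name alone. No 2 of the matches overlap.
Mrc1: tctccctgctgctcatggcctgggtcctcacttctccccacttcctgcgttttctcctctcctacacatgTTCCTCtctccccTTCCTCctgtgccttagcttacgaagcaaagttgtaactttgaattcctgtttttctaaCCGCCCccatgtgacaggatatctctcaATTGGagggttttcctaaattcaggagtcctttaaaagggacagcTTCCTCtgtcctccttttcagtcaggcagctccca
Stab1: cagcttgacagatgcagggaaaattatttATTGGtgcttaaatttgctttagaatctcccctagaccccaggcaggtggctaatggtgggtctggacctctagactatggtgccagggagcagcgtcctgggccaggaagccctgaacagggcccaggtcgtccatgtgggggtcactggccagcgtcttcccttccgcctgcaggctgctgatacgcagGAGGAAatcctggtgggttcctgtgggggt
Clec1b: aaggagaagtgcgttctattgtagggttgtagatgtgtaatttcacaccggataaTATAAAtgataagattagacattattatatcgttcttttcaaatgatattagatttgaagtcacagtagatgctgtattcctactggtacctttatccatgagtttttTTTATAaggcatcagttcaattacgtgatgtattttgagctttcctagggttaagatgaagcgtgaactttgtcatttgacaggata
Lrp1: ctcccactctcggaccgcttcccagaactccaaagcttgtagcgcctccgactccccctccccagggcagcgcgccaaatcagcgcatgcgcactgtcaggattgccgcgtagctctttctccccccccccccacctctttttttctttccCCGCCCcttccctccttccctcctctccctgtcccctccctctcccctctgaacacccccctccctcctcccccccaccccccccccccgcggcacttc
The Mrc1 window held GAGGAA 3 times, each on the opposite strand, a GC box and a CCAAT box. The Stab1 window held GAGGAA 25 to 30 bases before the start, and a CCAAT box. The start used for Stab1 lies inside the gene range given above. The lowest position of its window is 31168642, and the range of this minus-strand gene reaches 31168651. GAGGAA was in 23.4% of the 32536 distinct windows of this length in the table, and in neither the Clec1b nor the Lrp1 window. The Clec1b window, with 33.2% G and C, held TATAAA on each strand, a motif found in 12.3% of windows. The matches lay 190 to 195 bases before the start on the strand of the gene and 82 to 87 bases before it on the opposite strand. The Lrp1 window, with 67.2% G and C, held a GC box, as did 33% of windows. The median G and C content of all windows was 52.4%. A CCAAT box was in 33.8% of windows. The AP-1, AGATAA, STAT6-type and interferon-response-type letters, in 4.45%, 9.97%, 5.89% and 2.98% of windows, were in none of the 4 windows. The matches describe letters and not bound factors.

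For each receptor the genes with the most similar profile were sought among the 7934 other tested genes with a mean of at least 10 TPM, by the root mean square difference of log2(TPM + 1) over the 8 libraries after centring each gene on its mean. Tspan4, which encodes a tetraspanin, was nearest to Msr1 (0.099), before Chst14 (0.118) and Kctd12b (0.123), and it was also the second nearest to Stab1 (0.113), between Ap1b1 (0.104) and Kdelr2 (0.127). Mrc1 was most like Arhgef12 (0.117), Lbp (0.132), which encodes the lipopolysaccharide binding protein, and Ctsl (0.134), which encodes the lysosomal protease cathepsin L. Clec1b was most like Fermt2 (0.105), the Wnt receptor gene Fzd4 (0.152) and Plekhg1 (0.154), and Scarf1 most like Cmtm8 (0.112), Cnn3 (0.154) and Sorbs3 (0.162). Scarb1 had Maml2 (0.071), Bag5 (0.078) and Tbc1d2b (0.086) nearest, and Colec12 had Inafm1 (0.098), Cflar (0.107) and Pcnx (0.112). The neighbours of Lrp1 were genes of myeloid cells: Tyrobp (0.077), the signalling adaptor DAP12 and itself on the pan-macrophage list, Tbxas1 (0.102), thromboxane synthase, and Fyb (0.112), an adaptor of haematopoietic cells. Cd93 was nearest to 1700037H04Rik (0.125), Kansl2 (0.141) and Taf6 (0.152), none of which was called (adjusted p = 0.534, 0.679 and 0.522 by limma). Among the 9 receptors the closest pairs were Msr1 with Stab1 (0.17), Scarb1 with Colec12 (0.22) and Scarf1 with Clec1b (0.26), and the most distant were Lrp1 and Clec1b (2.16). The profiles include the difference between the groups, so that a like fold change by itself brings 2 genes close.

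Other scavenger receptors changed in part. Of 18 listed, 14 were tested, 6 were lower, 2 higher and 6 not called. The shares over all tested genes were 22.5% lower and 15.3% higher. The median log2 fold change of this list was -0.21 beside -0.06 for all tested genes. Stab2, the stabilin of sinusoidal endothelium, averaged 35.1 ± 13.9 TPM in CCl4 and 762 ± 183 TPM in naive libraries and fell by 4.44 (SE 0.280). Cd5l, a secreted protein with scavenger domains, fell by 3.13 (SE 0.222) and Cd163, the haemoglobin scavenger receptor, by 3.75 (SE 0.245). Also lower were Marco (log2 fold change -2.55), the fatty acid receptor Cd36 (-2.19) and the lysosomal Scarb2 (-0.93). Cd44, the hyaluronan receptor, rose by 0.84. Cxcl16, a scavenger receptor for oxidised lipid that is also a chemokine, rose by 0.55, a call lost without CCl4 replicate 1 (adjusted p = 0.0955) or 3 (0.101). Of these, Stab2 is also on the sinusoidal endothelial list, and Cd5l, Cd163 and Marco are on the Kupffer cell list. Scara5, Megf10, Ssc5d and Dmbt1 were below the filter.

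In the family of lipoprotein receptors to which Lrp1 belongs, 9 of 12 genes were tested. Of these 4 were lower, 2 higher and 3 not called, with a median log2 fold change of -0.43. The shares over all tested genes were 22.5% lower and 15.3% higher. Lrp5, a Wnt co-receptor, averaged 49.3 ± 6.77 TPM in CCl4 and 113 ± 17 TPM in naive libraries and fell by 1.17 (SE 0.157). Lrp3 fell by 2.08, Lrp6 by 0.85 and Lrp10 by 0.74, whose call was lost with the replicate block (adjusted p = 0.0514). Sorl1, a sorting receptor of the endosome, averaged 48.5 ± 3.57 TPM in CCl4 and 10.47 ± 4.30 TPM in naive libraries and rose by 2.17 (SE 0.240), and Lrp8, at 1.91 ± 0.18 TPM in CCl4 and 0.615 ± 0.201 TPM in naive libraries, rose by 0.86.

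The families of the mannose receptor and of Cd93 had 5 of 6 genes tested. Clec14a, an endothelial relative of Cd93, averaged 7.29 ± 3.78 TPM in CCl4 and 166 ± 61.3 TPM in naive libraries and fell by 4.32 (SE 0.415). The phospholipase receptor Pla2r1 fell by 3.14 (SE 0.221) and Thbd, thrombomodulin, by 1.80 (SE 0.215), while Mrc2, the collagen receptor Endo180, rose by 0.70 (adjusted p = 0.12 with the replicate block) and Ly75 was not called (adjusted p = 0.912). All 5 tested lectins from the neighbourhood of Clec1b were called, 3 lower and 2 higher, as were 37.8% of all tested genes in either direction. Clec1a fell by 2.89 (SE 0.218), Clec2d by 1.37 (SE 0.194) and Clec9a, also on the dendritic cell list, by 1.44 (SE 0.268). Clec7a, the beta-glucan receptor Dectin-1, rose by 1.82 (SE 0.260), to 135 ± 27.3 TPM in CCl4 against 38.7 ± 12.6 TPM in naive libraries. Clec12a rose by 1.21 (SE 0.270), a call that was lost when curated transcripts alone were summed (adjusted p = 0.0621) and with versioned accessions only (adjusted p = 0.0579).

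Of 12 tested adaptors and partners of these receptors, 3 were higher, 2 lower and 7 not called. Over all tested genes 15.3% were called higher and 22.5% lower, 37.8% in either direction. Syk, the kinase that CLEC-2 and Dectin-1 signal through, averaged 221 ± 21.4 TPM in CCl4 and 73.1 ± 18 TPM in naive libraries and rose by 1.61 (SE 0.201), while Clec1b itself fell. Plcg2, the phospholipase downstream of Syk, rose by 1.61 (SE 0.186). Arrb1 fell by 1.05 (SE 0.152) and Dab2, a clathrin adaptor, by 0.99 (SE 0.282), the second call being lost without CCl4 replicate 2-4 (adjusted p = 0.0838) or 3 (0.0719) and with curated transcripts only (0.0901). Lrpap1, the chaperone of Lrp1, was at 26.4 ± 5.09 TPM in CCl4 and 36.2 ± 5.59 TPM in naive libraries (adjusted p = 0.0567), and it was called lower under 6 of the alternatives, among them the fits without CCl4 replicate 1 (0.0247) and without naive replicate 5 (0.0357). The most abundant partners, Calr and Arrb2, had log2 fold changes of -0.17 and 0.17 and were not called (adjusted p = 0.551 and 0.418).

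In the clathrin coat list 11 of 18 genes were lower, 2 higher (Epn1 and Necap2) and 5 not called, with a median of -0.56. For this list and the endosome list below, the shares over all tested genes were 22.5% lower and 15.3% higher, 37.8% in either direction. The call of Epn1 was lost without either of CCl4 replicates 1 and 2-4 (adjusted p = 0.0708 and 0.0776), without naive replicate 1, 3 or 4 (0.0535, 0.0586 and 0.0669), with versioned accessions (0.172), with curated transcripts only (0.298) and with the replicate block (0.3), and that of Necap2 without CCl4 replicate 2-4 (0.0532) and with the block (0.138). The count of lower genes was 6 without CCl4 replicate 3, 7 without CCl4 replicate 2-4, 6 with versioned accessions only and 6 with the replicate block. Epn2 fell by 3.32 (SE 0.212), the scaffold Itsn1 by 2.03 (SE 0.182) and the adaptor subunit Ap2a2 by 0.92 (SE 0.164). Clta, a clathrin light chain, was at 283 ± 64.8 TPM in CCl4 and 299.5 ± 45.4 TPM in naive libraries (adjusted p = 0.721). Cltc, the heavy chain, fell by 0.65 (adjusted p = 0.0223, SE 0.194), a call lost without CCl4 replicate 3 (adjusted p = 0.111) or 2-4 (0.0754) and with the replicate block (0.0659). Of 14 genes of early and recycling endosomes 5 were lower, 1 higher (Vps26a) and 8 not called. The call of Vps26a was lost without CCl4 replicate 1 or 2-4 (adjusted p = 0.168 and 0.132), and without naive replicate 1, 3 or 4 (0.1, 0.0555 and 0.0976), and under 4 further alternatives. Rab5c fell by 0.73 (SE 0.154; adjusted p = 0.0641 with the replicate block), Snx2 by 1.05 (SE 0.177) and Rab4a by 1.06 (SE 0.172; adjusted p = 0.209 with curated transcripts only and 0.197 with versioned accessions). Rab7 stood at 157 ± 22.3 TPM in CCl4 and 189 ± 20.3 TPM in naive libraries (adjusted p = 0.162). It was called lower after rescaling to protein-coding genes (adjusted p = 0.00971) and after quantile normalization (0.0295).

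Among 12 ligands of the receptors 9 were tested, 5 were lower, 2 higher and 2 not called. The shares over all tested genes were 22.5% lower and 15.3% higher. Both ligands listed for Cd93 fell: Mmrn2 by 4.31 (SE 0.264) and Igfbp7 by 3.76 (SE 0.278), the second to 149 ± 41.4 TPM in CCl4 against 2047 ± 595 TPM in naive libraries. Sparc, which stabilin-1 clears, fell by 2.85 (SE 0.240), Col4a1, a collagen IV chain, by 3.21 (SE 0.240) and Apoa1, the main protein of HDL, by 1.44 (SE 0.394; adjusted p = 0.0644 without CCl4 replicate 2-4 and 0.0805 without replicate 3). Thbs1, thrombospondin-1, which Lrp1 clears, rose by 2.07 (SE 0.389). Apoe, also cleared by Lrp1, was at 10089 ± 3529 TPM in CCl4 and 6280 ± 1354 TPM in naive libraries (adjusted p = 0.099). It was called higher without CCl4 replicate 2-4 (adjusted p = 0.0346) and with library weights (0.0473). Its log2 fold change of 0.65 was 1.01 with the replicate block and 0.0089 after quantile normalization. Pdpn, the ligand of CLEC-2, was below the filter at 0.696 ± 0.315 TPM in CCl4 and 0.571 ± 0.427 TPM in naive libraries. The ligands Mmrn2, Igfbp7, Sparc and Col4a1 are made by endothelium, among other cells, and the endothelial marker sums given above were lower in the same libraries. Apoa1 is itself on the hepatocyte marker list, whose counts and sums are given above. The part of these markers in the ligand changes was not tested.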

How the data were processed

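Bulk RNA-seq of total RNA from preparations labelled as Kupffer cells was analysed in 3 CCl4 and 5 naive libraries. The library kit keeps strand, per the labels' protocols. The authors deposited TPM per RefSeq transcript, estimated with kallisto 0.42.4 on GRCm38, per the submitters' processing notes (index, trimming and filters: not given in the sources used here). Transcripts were matched by accession without version to a RefSeq table of GRCm38.p6, which placed 86722 of 107384 (46184 with the version); the others held 6.06% to 7.58% of TPM. TPM was summed to genes. The signal recognition particle RNA genes Rn7s1 and Rn7s2 took 27.5% to 41.3% of TPM and protein-coding genes 45.5% to 56.0%, which scales every other value. Depth is unknown.

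Genes, and separately transcripts, entered the test if 3 or more libraries had 1 TPM or more. The test was limma 3.58.1 in R 4.3.3, on log2(TPM + 1), with an intensity trend, Benjamini-Hochberg adjustment and a threshold of 0.05. A fold change on this scale understates the change of low genes. The procedure was tested on simulated data with genes drawn independently and far fewer of them changed than were called here. That test therefore does not show how well the calls are calibrated in these data. Exons and codons came from GENCODE M21 through its RefSeq table. The members and lists were chosen with earlier results of these data known. All 9 members are named; of each other list the 2 most abundant tested genes and, outside marker lists, the 3 with the smallest adjusted p; and for each member the 3 most similar genes. Other list genes in the text were picked with their values in view. The values of some list genes are not reported here; the list counts include them. Alternatives changed the pseudocount, filter, scaling, variance model, transcript matching and replicate block, or left out each library.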

Additional observations from a re-analysis of the deposited data

Results flagged for a closer look

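Dixon's ratio was computed in the 5 naive libraries for the members, their transcripts and the marker sums, 40 quantities in all, and chance flags about 1 in 20 of such groups. It picked out naive replicate 5 in 3 of them. For Msr1 that library had 200.04 TPM, below the 294.8 to 331.6 TPM of the other naive libraries. For the longer Msr1 form NM_001113326 it had 30.4 TPM, against 70.6 to 81.0 TPM in the others. The summed monocyte markers stood at 260.3 TPM there, above the 149.1 to 175.1 TPM of the others. Without this library the 7 falls among the receptors were still called.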

How the results depend on the processing

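All 7 lower receptor calls held under each of the 21 alternatives. The count of receptors called higher, 1, was 0 with no filter on low values and ranged from 0 to 1 when single libraries were left out. The log2 fold change of Lrp1, 0.76, lost its call with no filter (0.76, adjusted p = 0.0732 by limma) and ranged from 0.54 to 0.96 with libraries left out. Over all genes the higher calls numbered 4011 after quantile normalization and 1592 with curated transcripts only, against 2393. The replicate block rests on replicates 1 and 3, the numbers both groups share. Same-numbered libraries had deviations correlated at 0.0772 and -0.0414, and crossed ones at -0.0157 and -0.0727, so the numbers are not shown to pair the libraries. With the replicate block 5312 genes and 8 receptors were called, and Lrp1 changed by 1.21. That fit gives each replicate number its own term, so few libraries remain to measure the spread of a gene. Its SEs were nearly alike for the receptors, from 0.298 for Msr1 to 0.312 for Colec12, and come mainly from the variance pooled over genes. Calls made, kept or lost under it therefore do not measure a gene's own spread between libraries. Uncalled values changed sign as follows. Pf4 ranged from -0.19 to 1.07 and C1qb from -0.011 to 0.48 with libraries left out, and C1qb was -0.12 after quantile normalization. Clta ranged from -0.26 to 0.056 with libraries left out and was 0.34 with versioned accessions and 0.062 with the replicate block. Kansl2 ranged from -0.50 to 0.11, and was 0.13 with versioned accessions, 0.13 with curated transcripts, 0.034 after quantile normalization and 0.23 with the replicate block. For 1700037H04Rik the range was -0.56 to 0.090, with 0.16 for curated transcripts and 0.10 for the replicate block, and for Taf6 it was -0.52 to 0.097, with 0.16 for the replicate block. The Colec12 transcript XM_006525640 ranged from -0.51 to 0.25 with libraries left out, and was -0.13 at a pseudocount of 0.1 and -0.0088 after rescaling to protein-coding genes. The cause of these shifts was not tested. Without counts, the precision of low values such as Scarf1 in CCl4 libraries cannot be given beyond the spread between libraries.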
